A study of Mus musculus with 90 samples.

Results

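Amino acid transporter genes were taken as every row of the mouse count table whose symbol begins with Slc1a, Slc3a, Slc6a, Slc7a, Slc36a, Slc38a or Slc43a, leaving out Slc38a4. The rule found 63 of the 24422 genes in the table: 60 transporter genes and 3 genes named for the opposite strand of one (Slc7a6os, Slc36a1os and Slc6a19os). The libraries were single oocytes and embryos of CD-1 mice, sequenced from the 5′ ends of polyadenylated transcripts. MII oocytes came from superovulated, unmated, sexually mature females 21 to 23 h after hCG and were not cultured, and cumulus cells had been removed with hyaluronidase. Embryos at the 2-cell (2c) and 8-cell (8c) stages were grown in KSOM medium from zygotes and picked at 45 to 47 h and 71 to 73 h after fertilization, as labelled. In the WT groups the female was wildtype. In the matPlag1KO groups she was a Plag1 knockout, which leaves the oocyte without Plag1, and since all studs were wildtype the embryos carry the paternal allele alone. Each genotype had 16 oocytes, 14 2c embryos and 15 8c embryos, of which 16 WT and 14 matPlag1KO oocytes, 11 and 11 2c embryos, and 15 and 11 8c embryos passed the depth filter. The mothers are not named in the labels, so some embryos may share one, and p-values measure only the spread between these embryos.

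Amino acid transporters carry amino acids across the plasma membrane and the membranes of organelles. The Slc3 proteins are heavy chains that bring Slc7 light chains to the cell surface, where the pair exchanges 1 amino acid for another. Slc1, Slc6 and most Slc38 carriers use the sodium gradient, Slc36 carriers use protons, and Slc43 carriers are facilitators. In oocytes and cleavage embryos, glycine, proline, betaine and taurine taken up by Slc6 carriers also serve as osmolytes that set cell volume, and lysosomal carriers pass the state of the amino acid pool to the kinase complex mTORC1.

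Median gene counts ranged from 148473 in WT 2c embryos to 649899 in matPlag1KO oocytes, so 1 count at the group medians was worth 1.54 to 6.74 CPM on unscaled gene totals. All levels per embryo below are CPM on TMM library sizes. Plag1 itself had 326 counts in 16 of 16 WT oocytes and 4 counts in 3 of 14 matPlag1KO oocytes, but 1 count in 1 of 11 WT 2c embryos and 91 counts in 9 of 11 2c embryos labelled matPlag1KO. All embryos carry the paternal allele, so Plag1 counts at 2c do not check the label as they do in oocytes, and the higher count lay in the group with the fewer intact alleles. Groups at 2c are named as labelled, and directions between genotypes at 2c rest on that. All 7 oocyte markers were detected in oocytes, with summed medians of 5810 CPM in WT and 14300 CPM in matPlag1KO, against 72.9 and 115 CPM at 8c. Of 18 cumulus and granulosa cell markers 7 to 13 had a count in a group, with summed medians of 20.1 to 54.5 CPM and Ptx3 at 0 throughout; their part in the results was not tested. Each library is 1 whole oocyte or embryo, so changes with spike-in scaling are per embryo. They were not divided by the cell number, which rises with stage, so they are not changes per cell.

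Of the 63 members, 60 had at least 1 count in the 78 kept libraries and 48 passed the filter of 1 CPM in at least 5 libraries. The other 15 were not tested, among them Slc6a19, Slc7a10 and Slc7a12 with no count at all, which allows up to 0.270 CPM in matPlag1KO oocytes and up to 1.81 CPM in WT 2c embryos (3 counts over the group's gene total). The 31 members described below reached a group mean of 10 CPM, and 17 more were tested at lower levels. By mean CPM in WT, 12 of the 31 were highest in oocytes, 7 at 2c and 12 at 8c. Counted per spike-in RNA, which follows the RNA of the whole embryo, the split was 17, 4 and 10. Some of the 31 reached 10 CPM only in the group where they were highest, such as Slc1a4 (11.4 CPM, WT 2c) and Slc6a14 (10.2 CPM, WT 8c). By mean CPM Slc6a2 was placed at 2c in WT on 3 counts. Both splits describe the chosen members alone, and no split was made for all genes.

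**Figure D1:**
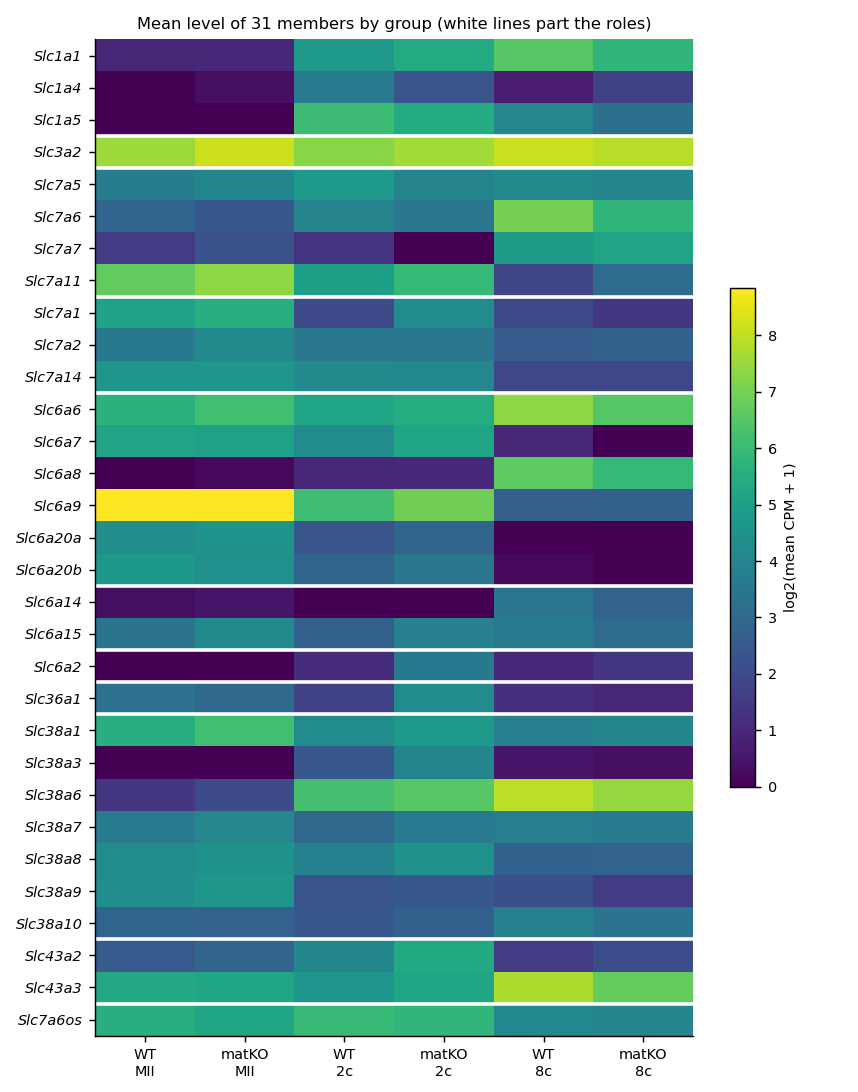
Mean level of the 31 members that reached a group mean of 10 CPM, as log2(mean CPM + 1) by colour, with 1 row per gene and 1 column per group; white lines part the roles. Slc6a9 was brightest in oocytes at 447 and 455 CPM, Slc1a5 went from 0 in oocytes to 65.5 CPM at 2c in WT, and Slc6a8 was at or under 1.01 CPM until 8c, where WT reached 98.7 CPM.

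Counted against spike-in RNA, more members fell than rose after the oocyte stage, and more rose than fell after 2c. The same held over all genes, so these directions are not a result about the members alone. In the 2 WT steps 68.8% and 58.3% of tested members were called, against 65.4% and 48.1% of all genes. With library sizes set by the spike-in RNA, 6 of the 48 tested members rose and 27 fell between MII and 2c in WT (edgeR quasi-likelihood test, Benjamini-Hochberg adjusted p under 0.05), where 14.1% of all 16511 genes tested rose and 51.3% fell (65.4% called). Between 2c and 8c in WT 18 members rose and 10 fell, against 31.9% and 16.2% of all genes (48.1% called). In matPlag1KO 7 rose and 26 fell in the first step, against 13.5% and 50.3% of all genes (63.8% called). In its second step 14 rose and 10 fell, against 29.1% and 19.5% (48.6% called). The median log2 change over the members was -1.88 in the first WT step (-1.37 with the 9 members set to their bound that have no count in 1 group and over 3 in the other) against -1.46 for all genes, and 0.44 (0.32 with bounds) against 0.53 in the second.

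On plate A alone the first WT step had 4 up and 19 down, with a median of all genes of -2.17, and on plate B alone 6 up and 8 down, with -0.67. The median of all genes moved with the plate too, so these counts are not read as a result about the members. The split also changed with the scaling, since TMM centres on the bulk of genes and takes no account of total RNA. Under TMM the median of all genes in the first WT step was -0.03, and 10 members rose and 9 fell, against 27.5% and 23.1% of all genes (50.6% called). In the second the median was -0.12, and 15 rose and 13 fell, against 21% and 28.9% (49.9% called). In matPlag1KO TMM gave medians of 0.14 and -0.31 over all genes. There 12 members rose and 9 fell in the first step (29.1% and 19.3% of all genes, 48.4% called), and 10 rose and 14 fell in the second (21.2% and 30.3%, 51.5% called). The WT members called the same way under both scalings were 6 up and 9 down for the first step, and 15 up and 10 down for the second. How many of all genes were called the same way under both was not counted. No member was called in opposite directions by the scalings in these 4 stage comparisons.

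**Figure D2:**
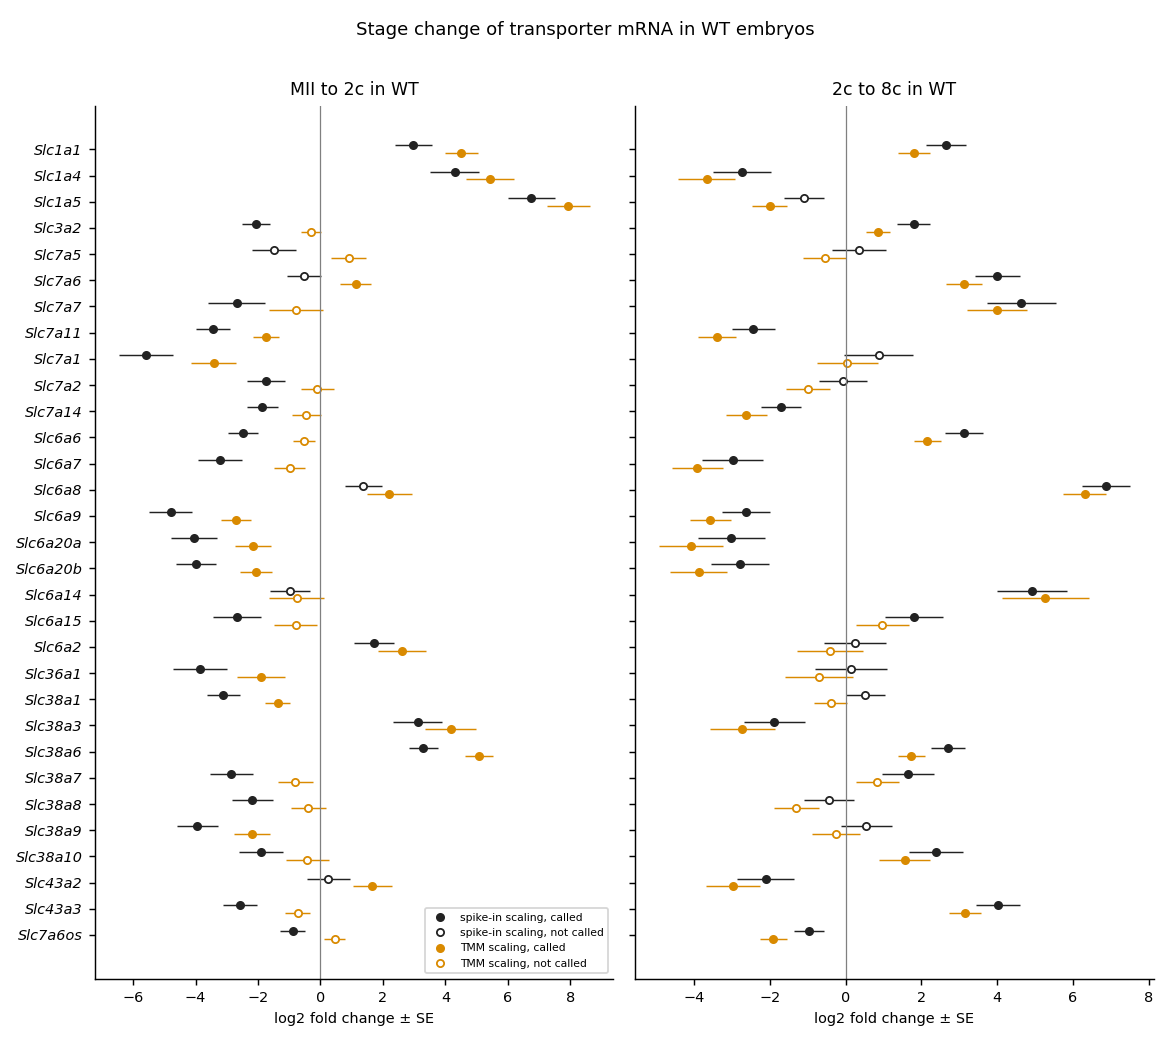
Log2 fold change (x axis, with SE bars) of the 31 members for the 2 WT steps (MII to 2c, left, and 2c to 8c, right), with spike-in scaling in black and TMM in orange; filled points were called. TMM points lie to the right of spike-in points in the first step and mostly to the left in the second. Slc3a2 was at -2.07 with spike-in scaling and at -0.30 with TMM in the first.

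The promoters of 4 members are shown: Slc6a9, which fell after the oocyte stage, Slc1a5, which rose at 2c, and Slc7a1 and Slc36a1. The last 2 were called between the 2c groups in the main fit, which did not hold in every refit, as given below. Each is the 250 bases before the gene start in the table (mm9), at chr4:117507613-117507862 and chr7:17366445-17366694 on the plus strand for Slc6a9 and Slc1a5, at chr5:149211481-149211730 on the minus strand for Slc7a1, and at chr11:55017592-55017841 on the plus strand for Slc36a1. Capitals mark matches on either strand to the PLAG1 consensus or to the antioxidant response element TGACNNNGC, and overlapping matches run together.
Slc6a9: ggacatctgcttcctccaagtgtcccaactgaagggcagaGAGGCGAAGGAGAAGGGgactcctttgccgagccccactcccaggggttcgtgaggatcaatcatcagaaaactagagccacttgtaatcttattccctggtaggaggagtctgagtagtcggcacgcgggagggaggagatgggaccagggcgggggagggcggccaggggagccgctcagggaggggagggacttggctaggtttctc
Slc1a5: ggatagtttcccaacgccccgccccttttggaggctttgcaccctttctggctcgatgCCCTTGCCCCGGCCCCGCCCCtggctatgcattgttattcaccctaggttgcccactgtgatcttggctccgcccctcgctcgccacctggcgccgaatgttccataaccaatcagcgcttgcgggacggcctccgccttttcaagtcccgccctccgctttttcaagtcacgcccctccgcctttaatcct
Slc7a1: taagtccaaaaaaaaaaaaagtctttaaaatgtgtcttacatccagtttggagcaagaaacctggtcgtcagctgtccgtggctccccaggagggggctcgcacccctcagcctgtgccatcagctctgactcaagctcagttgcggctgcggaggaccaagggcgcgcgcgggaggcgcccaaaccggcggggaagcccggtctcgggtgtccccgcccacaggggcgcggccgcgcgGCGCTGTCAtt
Slc36a1: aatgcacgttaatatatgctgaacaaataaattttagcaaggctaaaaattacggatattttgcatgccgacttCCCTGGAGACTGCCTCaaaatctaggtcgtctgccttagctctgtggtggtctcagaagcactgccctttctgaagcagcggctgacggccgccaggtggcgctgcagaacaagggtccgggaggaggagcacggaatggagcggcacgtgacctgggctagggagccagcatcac
The capitals belong to the PLAG1 consensus in Slc6a9, Slc1a5 and Slc36a1 and to TGACNNNGC, read on the other strand, in Slc7a1. Each promoter shown thus holds a match, while that of Slc6a8, which rose at 8c, holds none and is not shown. The PLAG1 consensus matched in 13 of 63 members and in 19.7% of all 24323 promoters scanned on both strands. TGACNNNGC was found in 6 members (Slc36a1os, Slc38a2, Slc6a11, Slc6a13, Slc7a1 and Slc7a6) and 10.6% of promoters, and the amino acid response element TGATGNAAT in 0 members and 0.798% of promoters. A match is a description of the letters, not a binding site.

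Among the exchangers, the heavy chain was found in every library, and the light chains differed in the stage where they were highest. Slc3a2, the heavy chain CD98, had 56.7 to 473 CPM (median 149) in WT oocytes, 44.7 to 464 (median 144) at 2c and 114 to 584 (median 269) at 8c, and the ranges of the 3 stages overlapped. With spike-in scaling it fell from MII to 2c and rose from 2c to 8c in both genotypes, by -2.07 and 1.80 on the log2 scale in WT; with TMM only the WT rise was called (0.86). The other heavy chain, Slc3a1, stayed at a mean of 2.62 CPM or less in every group. It overlaps Prepl on the opposite strand by 765 bases, and how strand was used in counting is not given in the sources used here.

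Slc7a11, the light chain that imports cystine in exchange for glutamate, was highest in oocytes. It had 41.6 to 333 CPM (median 86.2) in WT oocytes, 6.26 to 57.5 (median 28.3) at 2c and 0 to 17.9 (median 0) at 8c. In matPlag1KO the same stages had 50.8 to 531 (median 126), 16.4 to 141 (median 56.8) and 0 to 22.2 CPM (median 6.40). The ranges of neighbouring stages overlapped, and no WT 8c embryo reached the lowest WT oocyte. It fell from MII to 2c by 3.44 ± 0.54 (SE, worked out from the test's F statistic) on the log2 scale in WT (adjusted p = 5.59e-08; -1.75 with TMM) and also in matPlag1KO (adjusted p = 1.99e-07; -1.40 with TMM). From 2c to 8c it fell again, by 2.44 in WT and 2.30 in matPlag1KO.

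The light chains Slc7a6 and Slc7a7, which exchange cationic for neutral amino acids, rose at 8c. Slc7a6 had 0 to 17.2 CPM (median 5.23) in WT oocytes, 0 to 27.3 (median 13.9) at 2c and 32.5 to 321 (median 90.1) at 8c, so that every WT 8c embryo lay above every WT 2c embryo. It rose from 2c to 8c by 4.00 ± 0.59 in WT (adjusted p = 1.35e-08) and 2.93 ± 0.58 in matPlag1KO (adjusted p = 1.78e-05), where the 8c embryos had 34.8 to 87.7 CPM and 1 2c embryo reached 55.2. Slc7a7 had 0 to 6.26 CPM in WT 2c embryos and 0 in all 11 labelled matPlag1KO, against 5.92 to 52.0 (median 24.9) and 3.17 to 76.8 CPM (median 31.2) at 8c. Its 3 counts in WT 2c embryos put the WT rise at 34.5-fold per spike-in count (95% counting interval 11.6 to 169; adjusted p = 1.46e-05), and in matPlag1KO it was at least 44.6-fold (floor of 3 counts over the group). Slc7a7 overlaps Oxa1l on the opposite strand by 228 bases.

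Slc7a5, the light chain for large neutral amino acids, was found in every group. Its medians were 8.63, 20.8 and 17.4 CPM in WT and 13.3, 15.4 and 12.2 CPM in matPlag1KO, with the range of every group overlapping that of the others. From MII to 2c it was at -1.49 with spike-in scaling and 0.91 with TMM in WT, neither called, and in matPlag1KO it fell by 2.04 with spike-in scaling and was at -0.06 with TMM. Of the other 6 light chains, Slc7a8, Slc7a9 and Slc7a15 were tested at group means of at most 4.57 CPM, and Slc7a10, Slc7a12 and Slc7a13 had at most 1 count.

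Of the 5 cationic carriers 3 were tested, and Slc7a1 fell most after the oocyte stage. Slc7a1, the main arginine and lysine importer of many cells, had 4.00 to 133 CPM (median 18.2) in WT oocytes and 12.8 to 203 (median 32.0) in matPlag1KO oocytes. At 2c it was found in 4 of 11 WT embryos at up to 11.5 CPM, and in 9 of 11 labelled matPlag1KO at up to 43.6 (median 15.9). At 8c it was found in 6 of 15 and 4 of 11 embryos. Its fall from MII to 2c was 5.58 ± 0.88 on the log2 scale in WT (adjusted p = 5.90e-08) and 3.38 ± 0.73 in matPlag1KO (adjusted p = 4.15e-05), and with TMM 3.43 and 1.32; with median-ratio scaling the matPlag1KO fall was not called (-1.05, adjusted p = 0.102).

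Slc7a2, another cationic carrier, and Slc7a14 of the same family had smaller changes. Slc7a2 had medians of 9.79, 5.59 and 3.95 CPM over the WT stages, and its fall from MII to 2c with spike-in scaling (-1.74 in WT) was -0.10 and not called with TMM. Slc7a14 was found in every oocyte and 2c embryo, with WT medians of 21.8 and 13.7 CPM, and in 9 of 15 WT 8c embryos (median 2.38). It fell from 2c to 8c in both genotypes under both scalings (-1.71 and -1.98 with spike-in scaling). Slc7a3 and Slc7a4 had 5 and 9 counts in all kept libraries and were not tested.

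**Figure D3:**
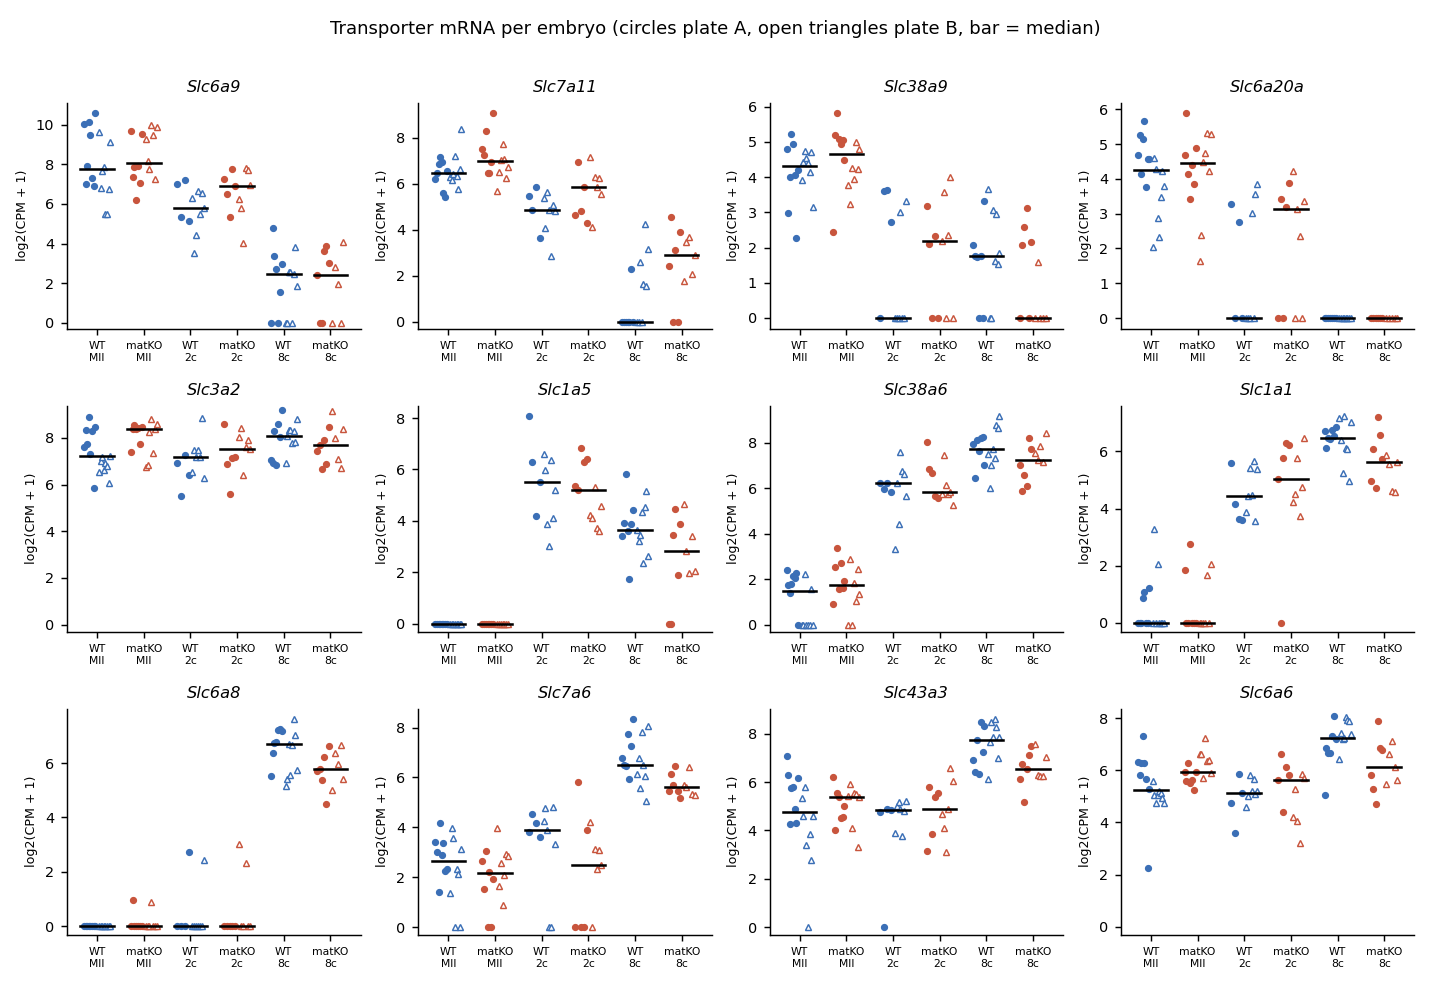
Level of 12 members in each oocyte or embryo, as log2(CPM + 1) on the y axis over the 6 groups; filled circles are plate A, open triangles plate B, and bars are medians. The bars of Slc6a9 and Slc7a11 step down from oocyte to 2c and again to 8c. Those of Slc38a9 and Slc6a20a drop after the oocyte stage. In WT the bar of Slc38a9 is at 0 at 2c and at 2.38 CPM at 8c. Slc1a5, Slc38a6 and Slc1a1 first appear in number at 2c, and every 8c embryo of Slc6a8 lies above every earlier one.

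Among the Slc6 osmolyte carriers, Slc6a9 fell at both steps. Slc6a9, the glycine transporter GLYT1, had 43.5 to 1531 CPM (median 218) in WT oocytes and 72.1 to 1019 (median 265) in matPlag1KO oocytes. At 2c it had 10.4 to 149 (median 53.8) and 15.4 to 228 CPM (median 120), and at 8c 0 to 26.3 (median 4.47) and 0 to 16.0 (median 4.31). Oocytes of the same group thus spanned a wide range that reached into that of 2c embryos, and no 8c embryo reached the lowest oocyte. In WT oocytes the plate medians were 476 CPM on plate A and 158 on plate B, and the mean log2 ratio of gene to spike-in counts was 6.04 and 5.13; in matPlag1KO oocytes the order of the plates was turned, with 236 CPM on plate A and 628 on plate B. On both plates the higher median was that of the oocytes in wells of row A, and the lower that of row B. The part of the well row was not tested. The fall of Slc6a9 from MII to 2c was 4.80 ± 0.69 in WT (adjusted p = 5.14e-09) and 3.81 ± 0.65 in matPlag1KO (adjusted p = 5.38e-07), and 2.71 and 1.90 with TMM. From 2c to 8c it fell by 2.62 in WT, and by 3.66 ± 0.73 in matPlag1KO (adjusted p = 1.70e-05). Slc6a9 and Ccdc24 overlap by 44 bases on opposite strands.

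The proline carriers also fell. Slc6a20a and Slc6a20b, neighbouring copies of the imino acid carrier on mm9 chr9:123546025-123587950 and chr9:123502938-123541683, may share reads and are uncertain as single genes. Slc6a20a had 3.15 to 49.8 CPM (median 17.9) in WT oocytes, a count in 5 of 11 WT 2c embryos and none in 15 WT and 11 matPlag1KO 8c embryos. Slc6a20b had a median of 23.2 CPM in WT oocytes, and 1 of 15 WT 8c embryos held its single count at that stage. From MII to 2c they fell by 4.04 ± 0.74 and 4.00 ± 0.64 in WT (adjusted p = 3.16e-06 and 1.32e-07). From 2c to 8c Slc6a20a fell at least 4.96-fold per spike-in count in WT (adjusted p = 0.00318; not called on plate A alone, adjusted p = 0.0861) and at least 5.55-fold in matPlag1KO, and Slc6a20b at least 6.85-fold in matPlag1KO.

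Slc6a7, the high-affinity proline carrier, was at 0 or near it by 8c. It had 3.14 to 140 CPM (median 21.4) in WT oocytes, 0 to 48.5 (median 12.95) at 2c and 0 to 4.53 (median 0) at 8c. In matPlag1KO the 2c embryos had 7.70 to 60.2 CPM (median 33.5), and none of the 11 8c embryos had a count. The change from MII to 2c was called with spike-in scaling (-3.21 in WT, -2.12 in matPlag1KO) and not with TMM (-0.98 and 0.11). From 2c to 8c it fell by 2.98 ± 0.80 in WT (adjusted p = 0.00138; not called on plate A alone, adjusted p = 0.154) and at least 27.7-fold per spike-in count in matPlag1KO (adjusted p = 3.28e-06).

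Slc6a6 and Slc6a8 rose at 8c. Slc6a8, the creatine carrier, had no count in WT oocytes, at most 5.63 CPM in WT and 7.06 CPM in labelled matPlag1KO 2c embryos, and 34.8 to 194 (median 102) and 21.5 to 101 CPM (median 53.8) at 8c. The 8c embryos did not overlap any earlier stage. With 2 counts in all WT 2c embryos the rise was 195-fold per spike-in count (95% counting interval 53.8 to 1614; adjusted p = 3.19e-15), and with 3 counts in matPlag1KO 78.3-fold (26.5 to 383; adjusted p = 9.98e-13). Slc6a6, the taurine carrier, had medians of 36.9, 33.8 and 149 CPM in WT and 60.1, 47.8 and 68.2 in matPlag1KO. It rose from 2c to 8c by 3.12 ± 0.50 in WT (adjusted p = 1.82e-07; 2.16 with TMM) and by 1.81 in matPlag1KO. Slc6a5 (glycine) was not tested, and Slc6a12 (betaine) stayed at a mean of 1.94 CPM or less.

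The remaining Slc6 carriers had low levels. Slc6a14, a broad importer of neutral and cationic amino acids, had no count in 22 2c embryos and was found in 11 of 15 WT and 5 of 11 matPlag1KO 8c embryos, at up to 29.3 and 34.8 CPM. The rise was at least 13.1-fold per spike-in count in WT and at least 8.17-fold in matPlag1KO (adjusted p = 7.45e-06 and 1.14e-04; not called on plate B alone in matPlag1KO, adjusted p = 0.163). In the table the span of Gm10921 lies over 27458 bases of Slc6a14 on the same strand, and Gm14351 and others on the opposite strand. Whether the counts of Slc6a14 hold reads of these genes was not tested. Slc6a15, a neutral amino acid carrier, had medians of 3.81 to 12.2 CPM over the groups. In WT it fell by 2.67 and then rose by 1.81 with spike-in scaling, and with TMM it was at -0.80 and 0.97 and not called. Slc6a2, the noradrenaline carrier, had no count in oocytes and 28 counts in 7 of 11 labelled matPlag1KO 2c embryos (median 7.06 CPM), a rise of at least 12.2-fold per spike-in count (adjusted p = 1.07e-05), against 3 counts in 3 of 11 WT 2c embryos.

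Of 6 tested Slc1 carriers 3 rose at 2c in WT (Slc1a1, Slc1a4 and Slc1a5) and 1 fell. Slc1a5, the glutamine carrier ASCT2, had no count in 16 WT and 14 matPlag1KO oocytes, 7.07 to 268 CPM (median 45.0) and 11.3 to 114 (median 35.7) at 2c, and 2.38 to 55.7 (median 11.6) and 0 to 24.0 CPM (median 6.09) at 8c. All 22 2c embryos held it and none of the oocytes did. The rise was at least 75.7-fold per spike-in count and 297-fold per unscaled gene total in WT (adjusted p = 1.21e-11), and at least 41.0-fold and 186-fold in matPlag1KO (adjusted p = 1.13e-09). The change from 2c to 8c was -1.09 in WT with spike-in scaling and not called (adjusted p = 0.0854), and -2.01 and called with TMM.

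Slc1a4, the alanine, serine and cysteine carrier of the same family, had no count in WT oocytes, a count in 8 of 11 WT 2c embryos (median 7.07 CPM, highest 37.5) and in 3 of 15 WT 8c embryos. It rose at least 11.85-fold per spike-in count from MII to 2c in WT (adjusted p = 2.51e-06) and fell by 2.73 ± 0.76 to 8c (adjusted p = 0.00211; not called on plate A alone, adjusted p = 0.261). Slc1a1, a glutamate, aspartate and cysteine carrier, had 0 to 8.72 CPM (median 0) in WT oocytes, 10.9 to 50.0 (median 20.8) at 2c and 30.6 to 149 (median 88.2) at 8c, without overlap between WT oocytes and 2c embryos. It rose at both steps in WT (2.98 and 2.64) and in matPlag1KO (3.19 and 1.30); with TMM the last of these was 0.46 and not called. In the table the spans of Snora19 and 2 other genes with several loci lie over Slc1a1 on the opposite strand.

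Slc38a6 had 0 to 4.27 CPM (median 1.80) in WT oocytes, 9.11 to 191 (median 72.9) at 2c and 63.0 to 570 (median 211) at 8c; matPlag1KO medians were 2.31, 56.4 and 152. Oocytes and 2c embryos did not overlap in either genotype, while 2c and 8c did. The rise from MII to 2c was 3.29 ± 0.46 in WT (adjusted p = 2.93e-09; 5.08 with TMM), and it rose again to 8c in both genotypes, by 2.71 and 1.77. Slc38a3, a glutamine carrier, had no count in oocytes and a count in 4 of 11 WT and 5 of 11 labelled matPlag1KO 2c embryos, with a highest value of 55.8 CPM. In matPlag1KO its rise was at least 15.7-fold per spike-in count (adjusted p = 5.61e-06). The fall to 8c in matPlag1KO, where 1 count was left, was 35.2-fold (95% counting interval 5.93 to 1430; adjusted p = 6.32e-04; not called by DESeq2, adjusted p = 0.0984, or on plate B alone, adjusted p = 0.0535).

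Slc38a9 and Slc38a1 were highest in oocytes. Slc38a9, the lysosomal arginine sensor upstream of mTORC1, had 3.78 to 36 CPM (median 18.8) in WT oocytes and was found in 5 of 11 WT 2c embryos at up to 11.5 CPM. It fell by 3.94 ± 0.65 in WT and 4.09 ± 0.64 in matPlag1KO (adjusted p = 2.07e-07 and 6.37e-08; -2.20 and -2.34 with TMM). Slc38a1, a glutamine carrier, had medians of 41.2, 18.2 and 12.4 CPM in WT and 58.0, 21.8 and 9.62 in matPlag1KO, and its fall from MII to 2c was 3.28 ± 0.53 in matPlag1KO (adjusted p = 1.22e-07; -1.44 with TMM). For Slc38a7, a lysosomal glutamine carrier, and for Slc38a8, the falls from MII to 2c with spike-in scaling (-2.85 and -2.18 in WT) were -0.81 and -0.39 with TMM and not called. Slc38a10 rose in WT from 2c to 8c, from a median of 0 to 12.6 CPM (2.39; 1.56 with TMM).

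In the Slc43 family, Slc43a3, which carries purine nucleobases, was high at 8c. It had 0 to 132 CPM (median 25.8) in WT oocytes, 0 to 35.9 (median 28.1) at 2c and 69.5 to 386 (median 211) at 8c, with every WT 8c embryo above every WT 2c embryo. The rise was 4.02 ± 0.57 in WT (adjusted p = 5.84e-09; 3.14 with TMM) and 2.18 in matPlag1KO, whose 8c embryos had 35.2 to 187 CPM (median 91.5) and overlapped its 2c embryos. Slc43a2, a facilitator for large neutral amino acids, had medians of 0.19, 11.2 and 0 CPM in WT and 5.66, 40.2 and 0 in matPlag1KO. It fell from 2c to 8c in both genotypes (-2.10 and -2.48) and rose from MII to 2c with TMM (1.66 and 2.57), where spike-in scaling gave 0.25 and 0.75 and no call. Slc43a1 stayed at a mean of 1.49 CPM or less.

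Slc36a1, a lysosomal exporter of small neutral amino acids, had 0 to 29.9 CPM in the oocytes of both genotypes (medians 4.08 and 4.19). At 2c it was found in 4 of 11 WT embryos at up to 11.2 CPM and in 8 of 11 labelled matPlag1KO (median 13.9, highest 45.9), and at 8c in 4 of 15 and 3 of 11. It fell in WT from MII to 2c by 3.86 ± 0.86 (adjusted p = 7.31e-05; not called on plate B alone, adjusted p = 0.0779) and in matPlag1KO from 2c to 8c by 3.18 ± 0.91 (adjusted p = 0.00263; not called on plate B alone, adjusted p = 0.0517). In matPlag1KO from MII to 2c it was at -0.42 with spike-in scaling and not called, and 1.37 and called with TMM. The opposite-strand gene Slc7a6os, which lies downstream of Slc7a6, had WT medians of 35.5, 59.2 and 15.4 CPM and fell from 2c to 8c in WT (-0.98; -1.91 with TMM).

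Between genotypes, 2.08% of the tested members were called in oocytes, 4.17% at 2c and 2.08% at 8c. These shares rest on 1 or 2 calls each and are not read as a result about the members. In oocytes 0 of 48 were higher and 1 was lower in matPlag1KO, where 0.309% of all genes were higher and 0.472% lower (0.781% called). That fit did not pair oocytes by well, and pairing changed the calls, as given below. At 2c 2 were higher and 0 lower, against 2.3% and 2.62% of all genes (4.92% called), and at 8c 0 were higher and 1 lower, against 1.21% and 0.527% (1.74% called). At an unadjusted p under 0.05 the counts were 6, 6 and 9 of 48 members, against 1690, 3380 and 2363 of all 16511 genes. The median differences over the members were 0.01, 0.31 and -0.18 on the log2 scale, against 0.00, 0.12 and 0.00 over all genes.

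The 2 members called at 2c were Slc7a1 and Slc36a1, whose promoters are shown above. Slc7a1 was higher in the embryos labelled matPlag1KO by 2.55 ± 0.79 on the log2 scale (adjusted p = 0.0429), and Slc36a1 by 2.84 ± 0.81 (adjusted p = 0.0271). The groups overlapped in both genes, since 2 and 3 of the 11 labelled matPlag1KO embryos had no count. Neither call held when the single embryo with the highest value was left out (8 and 13 counts in it): the differences were then 2.36 (adjusted p = 0.0703) and 2.62 (adjusted p = 0.0626). With spike-in scaling they were 2.64 and 2.97 (adjusted p = 0.0929 and 0.0593), and on plate A alone 2.20 and 1.32 (adjusted p = 0.585 and 0.746). On plate B alone Slc7a1 was not called either (2.70, adjusted p = 0.123), and without the gene filter its adjusted p was 0.0527. The summed oocyte markers had medians of 3332 CPM in WT and 4775 in labelled matPlag1KO 2c embryos, and the 2-cell markers 203 and 498 CPM with Zscan4f, Tcstv1 and Tcstv3 at 0. The 8-cell markers went the other way, with 5108 and 3099 CPM, and were at 7079 CPM in WT oocytes. The part of these markers in the 2c differences was not tested. Other members that fell after the oocyte stage were not called at 2c. The difference was 0.83 for Slc6a9, 0.98 for Slc7a11, 0.53 for Slc38a1, 0.19 for Slc38a9, 0.09 for Slc7a2 and -0.08 for Slc7a14 (adjusted p = 0.340, 0.180, 0.532, 0.945, 0.990 and 0.988), and Slc6a2 with 2.78 was not called either (adjusted p = 0.0578).

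**Figure D4:**
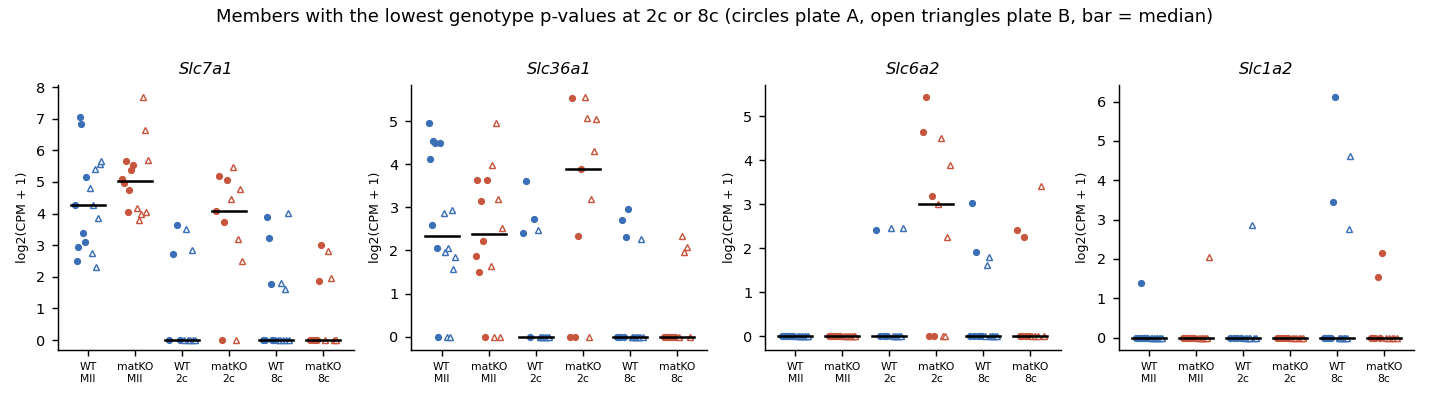
Level of Slc7a1, Slc36a1, Slc6a2 and Slc1a2 in each oocyte or embryo, as log2(CPM + 1) on the y axis over the 6 groups; filled circles are plate A, open triangles plate B, and bars are medians. At 2c 9 and 8 of the 11 embryos labelled matPlag1KO held Slc7a1 and Slc36a1, against 4 and 4 of 11 WT, and a single WT 8c embryo carried 67.9 CPM of Slc1a2.

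The calls at the other stages rested on few counts. In oocytes it was Slc6a11, a GABA carrier, with 23 counts in 7 of 16 WT and 1 count in 1 of 14 matPlag1KO oocytes (-2.57 ± 0.62, adjusted p = 0.0224). Without its highest WT oocyte the adjusted p was 0.0515, and with plate as a term 0.133. At 8c it was Slc1a2, a glutamate carrier, with 47 counts in 4 of 15 WT and 2 counts in 2 of 11 matPlag1KO embryos (-3.25 ± 0.90, adjusted p = 0.0386), of which 30 counts came from 1 WT embryo; without it the difference was -1.96 (adjusted p = 0.252). Members that rose from 2c to 8c in WT were not called otherwise. The difference was -1.25 for Slc7a6, -1.01 for Slc43a3, -0.82 for Slc6a6, -0.73 for Slc6a8 and -0.69 for Slc1a1 (adjusted p = 0.0794, 0.126, 0.181, 0.292 and 0.405). It was -0.50 for Slc38a6, -0.23 for Slc3a2 and 0.32 for Slc7a7 (adjusted p = 0.535, 0.823 and 0.859).

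**Figure D5:**
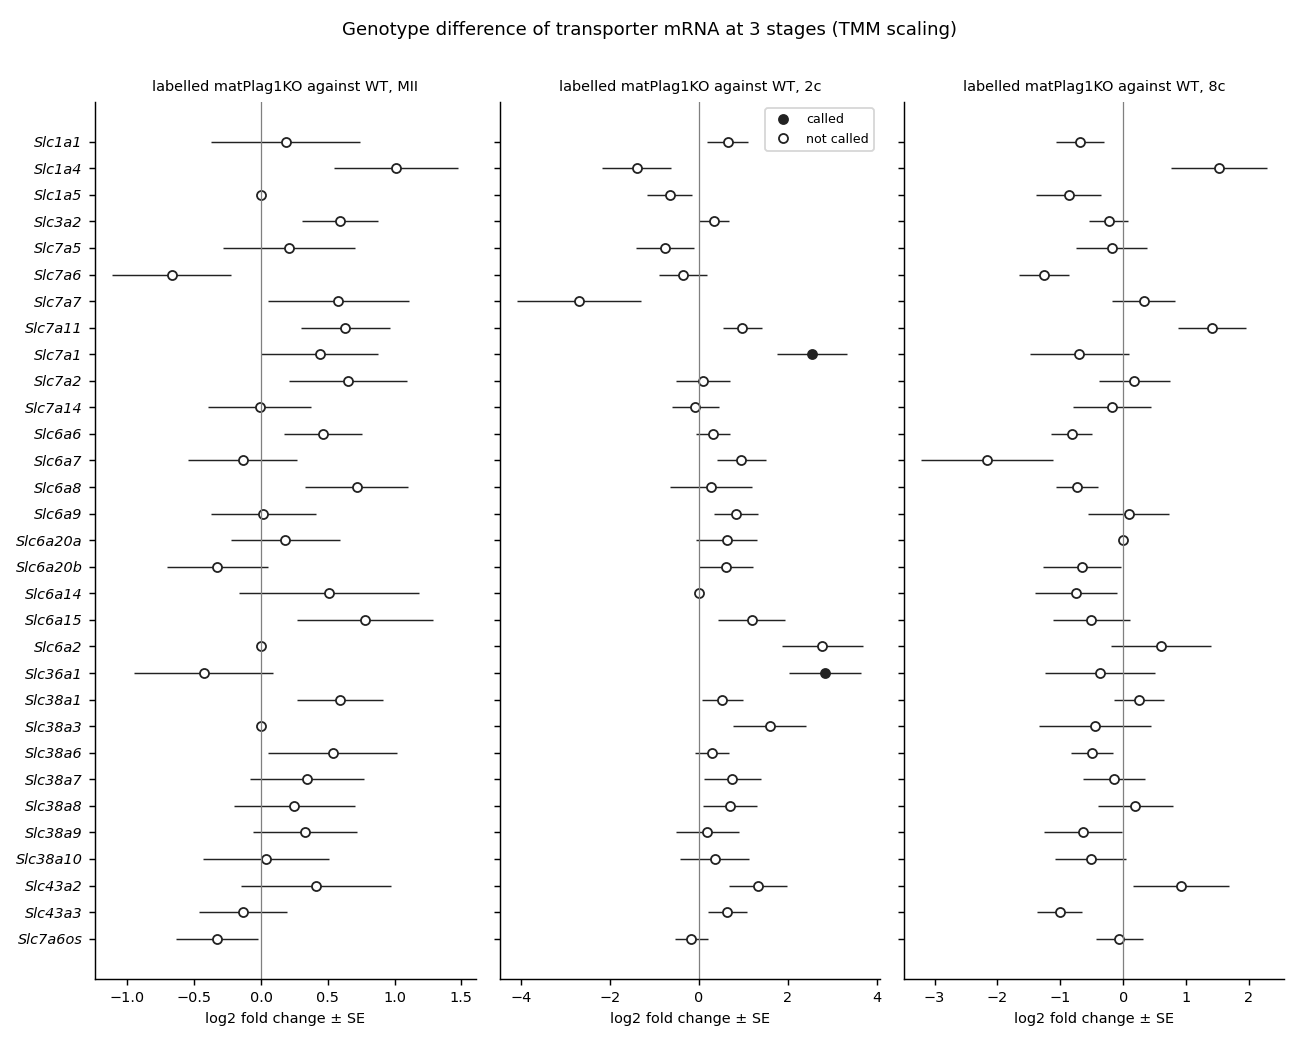
Log2 fold change of matPlag1KO against WT (x axis, with SE bars) for the 31 members at MII, 2c and 8c under TMM scaling, with scales that differ between panels; filled points were called. Slc7a1 and Slc36a1 at 2c are the called points among these members; Slc6a11 and Slc1a2, called at MII and 8c, lie under 10 CPM in every group and are not drawn.

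When the difference between genotypes was itself compared between stages, 2 members were called between 2c and MII, both higher, against 1.62% of all genes higher and 1.68% lower (3.31% called). Between 2c and 8c edgeR called 0 members, against 1.17% and 1.13% of all genes (2.3% called), and DESeq2 called 2. In edgeR 10 of 48 members had an unadjusted p under 0.05, against 2958 of all 16511 genes. Slc36a1 had a difference that was 3.27 ± 0.97 greater at 2c than in oocytes (adjusted p = 0.0398; 0.0745 without its highest embryo). The other was Slc7a8, a light chain for small and large neutral amino acids, at 3.98 ± 1.04 (adjusted p = 0.0180), with 10 counts in WT and 0 in matPlag1KO oocytes, and 3 and 11 counts at 2c. Those 11 counts lay in 4 of the 11 embryos labelled matPlag1KO, and 1 embryo held 5 of them.

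Other genes of amino acid handling are given beside the shares of all genes, which with spike-in scaling were 14.1% up and 51.3% down in the first WT step and 31.9% and 16.2% in the second. Of 12 tested genes of the amino acid response 2 rose and 7 fell in the first WT step with spike-in scaling, and 5 rose and 1 fell in the second. Psat1 and Trib3, a serine synthesis enzyme and a stress pseudokinase, rose by 6.06 and 4.75 in the first step, and Phgdh and Asns, enzymes of serine and asparagine synthesis, by 4.52 and 4.05 in the second. Among the 24 genes of lysosomal sensing 2 rose and 14 fell, then 10 rose and 5 fell, with Rraga and Lamtor3 at -6.66 and -5.63 in the first step and Sec13 and Rragd at 3.51 and 3.48 in the second. For the 9 genes of mTORC1 the counts were 1 and 7, then 5 and 0, led by Akt1s1 (-3.26, then 3.65). The 13 tested mitochondrial, lysosomal and aromatic carriers had 3 up and 6 down, then 4 up and 3 down, and of the 3 accessory proteins of Slc6 and Slc1 carriers 0 were called by edgeR in the first step (1 at an unadjusted p under 0.05) and Tmem27 fell in the second (-1.76). In the first step 11257 of all 16511 genes had an unadjusted p under 0.05.

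With TMM those lists had 5 up and 3 down for the amino acid response in the first WT step, 7 and 6 for lysosomal sensing, 2 and 1 for mTORC1, and 7 and 2 for the other carriers (27.5% and 23.1% of all genes). In the second step they had 4 and 4, 7 and 6, 3 and 2, and 4 and 4 (21% and 28.9% of all genes). Between genotypes at 2c, where 4.92% of all genes were called, the lists had 2 calls: Psat1 was lower in the embryos labelled matPlag1KO by -1.37 (adjusted p = 0.0205), and Lamtor3 was higher by 2.21 (adjusted p = 0.0322). At 8c Shmt2, a mitochondrial serine enzyme, was lower in matPlag1KO at -1.56 (adjusted p = 0.0142).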

How the data were processed

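Single-embryo libraries (STRT, which counts transcript 5′ ends by unique molecular identifiers, with ERCC RNA spiked in) were made in 2 pools, called plates A and B here, each holding every stage and genotype. The authors joined the identifiers, aligned to mm9 and counted genes with HOMER, and deposited a table of raw counts (90 libraries by 24422 genes, plus 92 spike-ins); tool versions are not given in the sources used here.

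A library whose median CPM was under 1 was dropped (12 in all, leaving 78). Testing was limited to the 16511 genes that reached 1 CPM in 5 or more of those. A single model over the 6 groups was fitted in edgeR 4.0.16 (R 4.3.3) with the two-sided quasi-likelihood test and Benjamini-Hochberg adjustment over all genes, called under 0.05. The SE in text and figures is the absolute log2 change divided by the square root of that test's F statistic. It is not a fitted standard error and says little where a group has no count. Spike-in totals were the library sizes for stages, TMM factors for genotypes; DESeq2 1.42.0 was an alternative. The procedure was tested on simulated data. Levels are CPM on TMM sizes. Bounds and ratios for genes with 3 counts or fewer in a group use pooled counts, a floor of 3 counts over the group, and exact 95% intervals, which cover counting error only. No 2 libraries of a group were copies (lowest chi-square per degree of freedom 3.54). Libraries of different groups were not compared in this check.

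The members, the lists of other genes and the tests were chosen with earlier results of these data known. Members that reached a group mean of 10 CPM are described, with full statistics for at most 10 called members per stage comparison, those with the largest change; Slc6a11, Slc1a2 and Slc7a8, under that level, are named because they were the calls. Protein sequences were not used here.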

Additional observations from a re-analysis of the deposited data

Results flagged for a closer look

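Slc36a1 and Slc7a8 stood out because the difference between genotypes at 2c was not the one in oocytes by a test of the difference itself (edgeR, adjusted p = 0.0398 and 0.0180). On the log2 scale the difference at 2c exceeded that at MII by 3.27 for Slc36a1 and by 3.98 for Slc7a8. Slc36a1 was 2.84 higher in 2c embryos labelled matPlag1KO, with Plag1 itself at 91 counts there against 1 count in WT 2c embryos. For Slc7a8 the test rested on 10 counts in WT and 0 in matPlag1KO oocytes and on 3 and 11 counts at 2c, of which 1 embryo held 5.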

How the results depend on the processing

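For the counts of members called by stage, a change of scaling or a single plate mattered most. From MII to 2c the 33 calls in WT became 19 with TMM, 19 with median-ratio scaling and 14 on plate B alone (6 up and 8 down), and the 33 in matPlag1KO became 21, 21 and, on plate A alone, 20. From 2c to 8c the 28 calls in WT became 13 on plate A alone, and the 24 in matPlag1KO 13 on plate A and 14 on plate B; a plate alone has fewer libraries. Between genotypes at MII the 1 call became 2 with all libraries kept, 3 on plate B and 0 by DESeq2. At 2c the 2 calls became 1 without the gene filter, 0 with spike-in scaling, 0 on plate A and 1 on plate B. At 8c the 1 call became 2 with all libraries, 2 with the 2 groups fitted alone, and 0 with spike-in scaling, on plate A or on plate B. The 2 members whose difference changed from MII to 2c became 1 with all libraries, without the filter, with spike-in scaling or by DESeq2, and for 2c against 8c 0 became 2 by DESeq2. The members highest at 2c, 7 in WT and 9 in matPlag1KO, became 4 and 4 per spike-in count. The cause of these moves was not tested. The counts are not set beside the shares of all genes at each setting, so they are no result about the members alone. Of 408 refits of 46 single-gene results, 380 kept direction and call, 28 lost the call and 0 reversed. All 46 were calls of the main fit, and most were those with the largest change in a stage comparison. They were thus picked on these same data, which favours keeping the call, and the refits say little about other members. Leaving out the highest embryo of a called gene was chosen after seeing the data. The same well numbers were used on both plates, and the labels name no other link between them. Deviations from the group means were nonetheless correlated over 0.1 in 12 of 14 opposite-genotype pairs of oocytes. The median correlation was 0.39, the lowest -0.10 and the highest 0.80. The main fit at MII did not use these pairs, and the source of the correlation was not tested. With the well as replicate block and plate as a term, 2 members were called between genotypes at MII (both higher) and 792 genes in place of 129. The genotype calls at MII thus depend on whether wells are paired. Over all genes at 2c the 379 higher and 433 lower calls became 721 and 273 with median-ratio scaling. No 2c or 8c block was fitted, with 2 and 0 opposite-genotype wells.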
